A study of Homo sapiens with 36 samples.

Results

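The cell cycle of cisplatin-resistant testicular germ cell tumor (TGCT) cells was examined through 46 genes, 23 that act in S phase and 23 that act in mitosis. The genes were taken by symbol, with no measured value entering the choice, and all 46 were among the 16431, 17035 and 16459 genes of the 3 experiments. The S-phase genes comprised the replicative helicase subunits MCM2 to MCM7, their loaders and activators ORC1, CDC6, CDT1, CDC45, GINS1 and GINS2, the replication factors PCNA and POLE2, the nucleotide-supply enzymes RRM1, RRM2 and TYMS, the cyclins CCNE1 and CCNE2, the phosphatase CDC25A and the transcription factors E2F1, E2F2 and MYBL2. The mitotic genes comprised the regulator FOXM1, CDK1 with its cyclins CCNA2, CCNB1 and CCNB2, the kinases PLK1, AURKA, AURKB, BUB1 and TTK, the checkpoint and exit factors BUB1B and CDC20, the kinetochore proteins CENPA, CENPE and CENPF, the spindle proteins KIF11, KIF20A, KIF23, TPX2, BIRC5 and NUSAP1, and the chromosome proteins MKI67 and TOP2A.

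RNA-seq had been performed on 36 libraries in 12 groups of 3. KDM6A and KDM6B remove methyl groups from lysine 27 of histone H3, and the small molecule GSK-J4 inhibits both. NT2/D1-A4 cells formed 4 arms. These were untreated controls, which the study calls vehicle controls, and cells exposed to cisplatin (6 h, 0.5 µM). The others were cells kept in GSK-J4 (3 days, 1 µM) and cells that received cisplatin at the end of the GSK-J4 period. Another experiment had these arms in 2102EP-C1 cells. In the knockdown experiment 2102EP-C1 cells with an empty pLKO.1 vector were compared with cells expressing hairpins against KDM6A and KDM6B together (sh6A+6B), and each kind was kept without cisplatin or exposed to the same dose. RNA was taken 24 h after cisplatin. Both lines are single cisplatin-resistant clones, of NT2/D1 and 2102EP embryonal carcinoma cells, so each line stands for 1 clone, and the knockdown cells had been selected in drug after lentiviral infection. The series describes the 3 libraries of a group as biological triplicates. The comparisons ask what demethylase inhibition, demethylase knockdown and cisplatin each do to the 46 genes, and whether the cisplatin difference depends on the other intervention.

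Library totals ranged from 26.8 to 49.5 M reads in the NT2/D1-A4 experiment, from 30.3 to 53.6 M reads in the 2102EP-C1 GSK-J4 experiment and from 79.4 to 100.9 M reads in the knockdown experiment (the median standard error of a fold change over the members was 0.041, 0.035 and 0.020). Levels are log2 CPM, the log2 of reads scaled to a common library total, and a difference of 1 is a factor of 2. Between libraries of a group the values over all genes correlated at 0.994 to 0.999 (Pearson). The knockdown lowered both targets. KDM6A was 7.16 ± 0.014 (SD, n = 3) in pLKO.1 and 6.15 ± 0.056 in sh6A+6B cells, and KDM6B was 4.63 ± 0.023 and 3.62 ± 0.12. After GSK-J4 KDM6B stood at 4.55 ± 0.087 against 3.67 ± 0.089 in NT2/D1-A4 and at 5.34 ± 0.16 against 4.52 ± 0.12 in 2102EP-C1. Of 12 embryonal carcinoma markers 11 were found by symbol in each experiment, all above 2 CPM. No row carried the symbol TDGF1, and that gene was not sought under another name, so its level is not known here. By symbol 4 to 6 of 15 markers of differentiated lineages and 3 or 4 of 7 of blood or endothelium were found, at low levels. The summed embryonal carcinoma markers moved with the arms, from 10163 to 10384 CPM in NT2/D1-A4 control libraries to 8794 to 9037 after GSK-J4 and 8024 to 8799 after both agents. In 2102EP-C1 they were 12307 to 12704, 10943 to 11181 and 10351 to 10660 CPM, and 11685 to 11740 in pLKO.1, 10956 to 11112 in sh6A+6B and 10119 to 10194 in sh6A+6B cells given cisplatin. Summed differentiated lineage markers were 11.4 to 13.2 CPM in NT2/D1-A4 controls and 15.2 to 17.4 after GSK-J4, 23.3 to 25.2 and 31.3 to 34.9 in 2102EP-C1, and 24.8 to 25.7 and 21.3 to 22.9 with the knockdown. The blood and endothelial markers summed to 6.7 to 21.2 CPM over all libraries. The part of these markers in the results was not tested.

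The 2 gene groups are switched on one after the other as a cell divides. When growth signals release the E2F factors from the retinoblastoma protein, genes for origin licensing, the helicase, nucleotide supply and cyclin E are transcribed and S phase begins. Later in the cycle MYBL2 and FOXM1, working with the MuvB complex, turn on the genes of G2 and mitosis, whose promoters often hold a cell cycle genes homology region (CHR) and CCAAT boxes. Embryonal carcinoma cells, like other pluripotent cells, cycle fast with a short G1 phase. In bulk RNA, fewer cells in a phase and less RNA of that phase per cell cannot be told apart.

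The promoters of the S-phase and the mitotic genes held different sequence words. RefSeq promoter windows of GRCh38.p14, from 250 bases before to 50 after each start, were held for 38 of the 46 genes, 20 of S phase and 18 of mitosis, and were searched on both strands for the E2F words TTTCCCGC, TTTCGCGC, TTTGCCGC and TTTGGCGC, the CHR words TTTGAA and TTTAAA, and CCAAT. An E2F word was found for 14 of the 20 S-phase and 3 of the 18 mitotic genes, against 3.99% of the 27305 genes in the table. A CHR word was found for 4 of 20 and 15 of 18, against 27.9%, and CCAAT for 13 of 20 and 16 of 18, against 39.7%. A CHR word can overlap CCAAT read on the other strand, as it does once in MKI67. The 150 bases before the start are shown 5′ to 3′ on the gene's strand for 3 genes of each group, because they let the 2 promoter types be compared, with every searched word in capitals. They and the words were chosen after the motif matches and the fold changes had been seen.
MCM6 (chr2:135876444-135876593, minus strand): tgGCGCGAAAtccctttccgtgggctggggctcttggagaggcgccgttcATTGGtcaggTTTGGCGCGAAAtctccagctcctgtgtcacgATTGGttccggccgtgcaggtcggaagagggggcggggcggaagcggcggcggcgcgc
E2F1 (chr20:33686386-33686535, minus strand): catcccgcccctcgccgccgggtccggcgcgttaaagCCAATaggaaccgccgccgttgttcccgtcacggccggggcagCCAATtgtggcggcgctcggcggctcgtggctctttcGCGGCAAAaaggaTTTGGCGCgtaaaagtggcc
CDT1 (chr16:88803639-88803788, plus strand): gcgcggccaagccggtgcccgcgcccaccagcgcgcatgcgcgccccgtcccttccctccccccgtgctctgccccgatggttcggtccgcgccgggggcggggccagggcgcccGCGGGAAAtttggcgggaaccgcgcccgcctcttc
CCNB1 (chr5:69167000-69167149, plus strand): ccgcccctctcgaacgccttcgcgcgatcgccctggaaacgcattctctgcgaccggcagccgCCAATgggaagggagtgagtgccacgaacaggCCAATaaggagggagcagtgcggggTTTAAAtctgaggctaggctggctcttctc
PLK1 (chr16:23678739-23678888, plus strand): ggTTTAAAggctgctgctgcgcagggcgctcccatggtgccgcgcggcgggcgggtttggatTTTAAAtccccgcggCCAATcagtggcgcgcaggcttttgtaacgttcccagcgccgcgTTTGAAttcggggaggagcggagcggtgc
MKI67 (chr10:128126424-128126573, minus strand): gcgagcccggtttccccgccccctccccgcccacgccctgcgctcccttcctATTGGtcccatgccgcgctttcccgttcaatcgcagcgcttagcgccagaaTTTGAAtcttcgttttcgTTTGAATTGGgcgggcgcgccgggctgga
The first 3, of S phase, hold E2F words and no CHR word in this stretch, and the last 3, of mitosis, hold CHR words and no E2F word. A match is a run of letters only, and binding was not measured here.

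Averaged over its 23 genes, each group was lower in every library given GSK-J4 or sh6A+6B than in any control library of its experiment, except for the mitotic group in sh6A+6B cells given cisplatin. In NT2/D1-A4 cells the mitotic mean, relative to its mean in controls, lay at -0.46 to -0.39 on the log2 scale after GSK-J4 and -0.45 to -0.41 after both agents, while the S-phase mean lay at -0.19 to -0.17 after GSK-J4 and at -0.18 in each of the 3 libraries given both. Some single S-phase genes were less even in these 3 libraries. From replicate 1 to 3 MCM2 fell, at 7.40, 7.28 and 7.19 log2 CPM, and PCNA rose, at 8.26, 8.42 and 8.55, while ORC1 was level. In 2102EP-C1 cells the groups stood close together after GSK-J4, the S-phase mean at -0.21 to -0.18 and the mitotic mean at -0.26 to -0.18. In sh6A+6B cells the S-phase mean lay at -0.22 to -0.20 and the mitotic mean at -0.097 to -0.080, and with cisplatin added the mitotic mean stood at -0.012 to 0.0042, where the pLKO.1 libraries lay at -0.0081 to 0.0091. After cisplatin alone the means stayed within -0.084 and 0.072 of the controls.

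**Figure D1:**
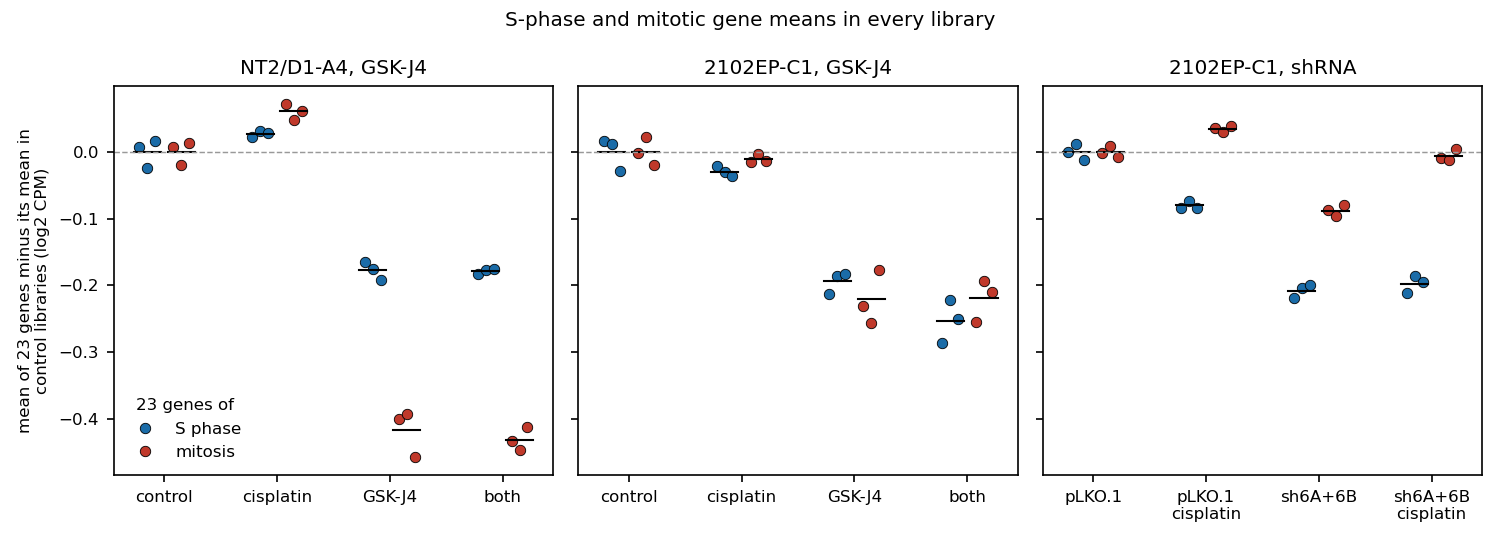
Mean log2 CPM of the 23 S-phase genes (blue) and the 23 mitotic genes (red) in each of the 36 libraries, minus the mean of the 3 control libraries of the experiment. Points are libraries and bars are arm means. The mitotic points after GSK-J4 in NT2/D1-A4 cells sit lowest, and those of sh6A+6B cells given cisplatin lie near 0.

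GSK-J4 lowered 20 of the 23 mitotic and 16 of the 23 S-phase genes of NT2/D1-A4 cells, with the larger falls among the mitotic genes MKI67, CENPE and CENPF. Of the 23 mitotic genes 11 fell by more than 1.3-fold at an adjusted p under 0.05 and none rose, and 20 were lower at that adjusted p whatever the fold (limma-trend, Benjamini-Hochberg adjustment over all genes of the experiment). Of the 23 S-phase genes 2 fell by more than 1.3-fold, 16 were lower and 3 higher by adjusted p. Over all genes 6.48% fell and 13.8% rose by more than 1.3-fold, and 23.8% were lower by adjusted p. The median log2 fold change was -0.36 over the mitotic and -0.23 over the S-phase genes, beside 0.0084 over all genes. With the trends of transcript length and GC content removed from each library, 20 members were called in place of 13.

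Among the S-phase genes of NT2/D1-A4 cells, cyclin E1 and a polymerase subunit fell most. CCNE1, the cyclin that activates CDK2 at the start of S phase, was at 6.12, 6.12 and 6.15 in control cells, 6.32, 6.31 and 6.35 after cisplatin, 5.66, 5.65 and 5.61 after GSK-J4 and 5.71, 5.83 and 5.72 after both (log2 CPM). Its GSK-J4 libraries lay below all its controls, with a log2 fold change of -0.49 (SE 0.040, adjusted p = 1.2e-08). POLE2, a subunit of the leading-strand polymerase epsilon, was at 5.55, 5.51 and 5.55 in control cells, 5.43, 5.43 and 5.44 after cisplatin, 5.19, 5.05 and 5.06 after GSK-J4 and 4.91, 5.11 and 5.33 after both. It fell by 0.44 on the log2 scale (SE 0.071, adjusted p = 5.3e-05) and the libraries given both agents were the most scattered of the 4 arms. MCM2, of the replicative helicase, stood at 7.57, 7.57 and 7.60 in control cells, 7.63, 7.60 and 7.58 after cisplatin, 7.32, 7.35 and 7.33 after GSK-J4 and 7.40, 7.28 and 7.19 after both. It fell by 0.25 (adjusted p = 6.0e-05), and all 6 helicase genes fell, by 0.17 for MCM6 to 0.33 for MCM7. E2F1, which switches on many of these genes, was at 5.03, 4.94 and 4.999 in control cells, 4.96, 4.92 and 4.92 after cisplatin, 4.77, 4.71 and 4.77 after GSK-J4 and 4.80, 4.62 and 4.52 after both. The difference after GSK-J4 was -0.24 (SE 0.059, adjusted p = 0.0023), with no overlap between the groups.

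Other S-phase genes of NT2/D1-A4 cells were level or higher. PCNA, the sliding clamp that holds polymerases on DNA, stood at 8.31, 8.30 and 8.35 in control cells, 8.31, 8.33 and 8.38 after cisplatin, 8.33, 8.32 and 8.30 after GSK-J4 and 8.26, 8.42 and 8.55 after both. Control and GSK-J4 libraries overlapped, and the difference was -0.0021 (95% interval -0.11 to 0.10). RRM2, the regulated subunit of ribonucleotide reductase, was at 8.86, 8.81 and 8.79 in control cells, 8.90, 8.89 and 8.90 after cisplatin, 8.75, 8.77 and 8.78 after GSK-J4 and 8.80, 8.88 and 8.90 after both. Its GSK-J4 libraries lay just below the controls, at -0.059 (95% interval -0.13 to 0.012, adjusted p = 0.16). CCNE2, the second cyclin E, was at 4.07, 4.01 and 4.06 in control cells, 4.24, 4.34 and 4.33 after cisplatin, 4.39, 4.26 and 4.12 after GSK-J4 and 4.17, 4.28 and 4.38 after both. It was higher after GSK-J4, at 0.21 (SE 0.068, adjusted p = 0.015), as were TYMS, which makes thymidylate, at 0.23 (SE 0.043, adjusted p = 2.2e-04), and RRM1, the large reductase subunit, at 0.094 (adjusted p = 0.021).

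CENPE, MKI67, CENPF and KIF20A fell most among the mitotic genes of NT2/D1-A4 cells. CENPE, the kinesin that carries chromosomes to the spindle equator, was at 7.05, 7.01 and 7.03 in control cells, 7.02, 6.79 and 6.84 after cisplatin, 6.09, 5.95 and 5.84 after GSK-J4 and 5.72, 5.70 and 5.71 after both. Its GSK-J4 libraries lay about 1 log2 unit below the controls, at -1.07 (SE 0.057, adjusted p = 2.8e-11). MKI67, the Ki-67 antigen that coats mitotic chromosomes and marks dividing cells, stood at 9.05, 8.83 and 8.89 in control cells, 8.98, 8.76 and 8.72 after cisplatin, 7.88, 8.17 and 8.05 after GSK-J4 and 8.10, 7.95 and 7.91 after both. It fell by 0.89 (SE 0.073, adjusted p = 1.2e-08), although its 3 controls were more widely spread than those of the other genes shown. CENPF fell by 0.73, the cytokinesis kinesin KIF20A by 0.67, AURKB, the kinase that corrects faulty spindle attachments, by 0.60 and KIF23 by 0.51, all with adjusted p values of 4.1e-09 or lower.

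The mitotic kinases and cyclin B1 of NT2/D1-A4 cells fell too, by less. CCNB1, the cyclin that brings CDK1 into mitosis, was at 8.48, 8.50 and 8.50 in control cells, 8.56, 8.63 and 8.66 after cisplatin, 8.09, 7.99 and 7.94 after GSK-J4 and 7.93, 7.998 and 8.14 after both. AURKA, the centrosome kinase, stood at 7.51, 7.52 and 7.56 in control cells, 7.69, 7.67 and 7.70 after cisplatin, 7.05, 7.08 and 7.01 after GSK-J4 and 7.05, 7.05 and 7.10 after both. PLK1, the Polo-like kinase of mitotic entry, was at 6.93, 7.01 and 6.97 in control cells, 6.96, 6.99 and 6.999 after cisplatin, 6.61, 6.62 and 6.49 after GSK-J4 and 6.52, 6.42 and 6.43 after both. No library of these 3 genes given GSK-J4 reached the lowest control, and the differences were -0.48 (SE 0.048, adjusted p = 1.3e-07), -0.48 (SE 0.034, adjusted p = 1.3e-09) and -0.40 (SE 0.042, adjusted p = 2.7e-07). TOP2A, the topoisomerase that untangles sister chromatids, was at 9.95, 9.91 and 9.86 in control cells, 10.08, 10.03 and 10.03 after cisplatin, 9.61, 9.63 and 9.55 after GSK-J4 and 9.69, 9.65 and 9.67 after both. It fell by 0.31 (adjusted p = 5.2e-07), under the 1.3-fold limit. CDK1, the kinase of mitotic entry, was at 6.53, 6.49 and 6.61 in control cells, 6.78, 6.84 and 6.91 after cisplatin, 6.51, 6.47 and 6.45 after GSK-J4 and 6.59, 6.66 and 6.87 after both. Its control and GSK-J4 libraries overlapped, with a difference of -0.063 (95% interval -0.18 to 0.056), and neither CCNB2 (-0.053) nor CCNA2 (-0.082) passed the test.

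Cisplatin alone left the 46 genes of NT2/D1-A4 cells nearly where they were. None passed the 1.3-fold limit with limma-trend or with voom, beside 2.05% of all genes called higher and 0.396% lower. By adjusted p 2 S-phase and 5 mitotic genes were higher and none was lower, with 5 and 9 at an unadjusted p under 0.05, and 5.85% of all genes were higher by adjusted p. The 2 S-phase genes were CCNE2, at 0.25 (SE 0.068, adjusted p = 0.024), and CCNE1, at 0.20 (SE 0.040, adjusted p = 0.0039). CDK1 stood highest of the mitotic genes, at 0.30 (SE 0.057, adjusted p = 0.0028), followed by AURKA at 0.16, KIF20A at 0.15, TOP2A at 0.14 and NUSAP1, a spindle microtubule protein, at 0.13. The 7 passing genes became 3 without control replicate 2 or 3, 4 without control replicate 1 or cisplatin replicate 2, and 11 without replicate 3 of the combination.

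With both agents the mitotic genes of NT2/D1-A4 cells were again the lower ones. Against controls 12 mitotic genes fell by more than 1.3-fold and none rose, and 3 S-phase genes, E2F2, MCM7 and POLE2, fell while TYMS rose, by 0.40, where 9.56% of all genes were called lower and 15.9% higher. CENPE was at -1.32, MKI67 at -0.94 and KIF20A at -0.74. GSK-J4 within cisplatin-treated cells, a comparison that uses none of the libraries of GSK-J4 alone against control, lowered 14 mitotic and 3 S-phase genes by more than 1.3-fold, beside 7.84% of all genes. Over the 46 genes the 2 GSK-J4 differences correlated at a Spearman rho of 0.94 (n = 46 genes of the same 4 arms, given as a description). Cisplatin added to GSK-J4 called no member with limma-trend or voom, beside 0.377% of all genes, with 6 S-phase and 6 mitotic genes at an unadjusted p under 0.05. The 3 members that passed by adjusted p, beside 1.26% of all genes, became 9, with 1 called, without replicate 1 of the combination, and 0 or 1 without any of 8 other libraries. The change in the cisplatin difference with GSK-J4 passed for no member with limma-trend or voom, with 3 S-phase and 6 mitotic genes at an unadjusted p under 0.05, and 0.0426% of all genes were called.

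In 2102EP-C1 cells GSK-J4 lowered nearly all of both groups, by small amounts. By adjusted p 19 of 23 S-phase and 22 of 23 mitotic genes were lower and none was higher, where 16.0% of all genes were lower. Past the 1.3-fold limit 1 S-phase and 1 mitotic gene fell, E2F2 and CCNB1, beside 3.12% of all genes. The median log2 fold changes were -0.20 for S phase and -0.21 for mitosis, with -0.0017 over all genes. Without control replicate 2 or GSK-J4 replicate 2 E2F2 was called and CCNB1 was not, and 7 members were called with length and GC trends removed. MYBL2 (0.0057), RRM1 (-0.034), TYMS (0.042), CCNE2 (-0.24) and FOXM1 (0.016) did not pass.

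Among the S-phase genes of 2102EP-C1 cells the largest differences were in E2F2, a second activating E2F factor, and CCNE1. E2F2 was at 2.38, 2.37 and 2.20 in control cells, 2.30, 2.30 and 2.30 after cisplatin, 1.69, 1.83 and 1.84 after GSK-J4 and 1.73, 1.69 and 1.54 after both (log2 CPM). The GSK-J4 libraries lay below every control, at -0.53 (SE 0.10, adjusted p = 2.3e-04), and the gene had between 96 and 241 reads in a library. CCNE1 was at 5.41, 5.48 and 5.40 in control cells, 5.46, 5.38 and 5.46 after cisplatin, 5.10, 5.06 and 5.16 after GSK-J4 and 4.91, 5.08 and 5.03 after both. It fell by 0.33 (SE 0.048, adjusted p = 5.9e-06). E2F1 stood at 5.11, 5.09 and 5.04 in control cells, 4.93, 4.97 and 4.94 after cisplatin, 4.76, 4.79 and 4.79 after GSK-J4 and 4.32, 4.56 and 4.61 after both. It stepped down from arm to arm, by 0.30 after GSK-J4 and 0.58 after both agents (adjusted p = 2.3e-09), with no overlap among the control, GSK-J4 and combination libraries.

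MCM2 of 2102EP-C1 cells was at 7.24, 7.28 and 7.24 in control cells, 7.26, 7.22 and 7.21 after cisplatin, 7.17, 7.19 and 7.02 after GSK-J4 and 6.96, 6.96 and 6.93 after both. It differed by -0.12 (SE 0.037, adjusted p = 0.012) after GSK-J4, and replicate 3 lay lowest of that arm. PCNA stood at 8.99, 8.96 and 8.95 in control cells, 9.004, 8.97 and 8.96 after cisplatin, 8.78, 8.81 and 8.90 after GSK-J4 and 8.91, 8.93 and 8.94 after both, and it differed by -0.14 (SE 0.031, adjusted p = 0.0011) after GSK-J4. RRM2 was at 8.75, 8.81 and 8.71 in control cells, 8.80, 8.81 and 8.76 after cisplatin, 8.49, 8.46 and 8.63 after GSK-J4 and 8.53, 8.57 and 8.54 after both, and differed by -0.23 (SE 0.036, adjusted p = 1.8e-05). CCNE2 was at 2.85, 2.55 and 2.65 in control cells, 2.53, 2.62 and 2.79 after cisplatin, 2.22, 2.56 and 2.53 after GSK-J4 and 2.45, 2.65 and 2.63 after both, where control and GSK-J4 libraries overlapped (-0.24, adjusted p = 0.078). The helicase genes MCM2 to MCM7 all passed, from -0.12 for MCM2 to -0.27 for MCM6.

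Cyclin B1 was the mitotic gene that fell most in 2102EP-C1 cells. CCNB1 was at 8.44, 8.44 and 8.40 in control cells, 8.42, 8.39 and 8.39 after cisplatin, 8.04, 8.02 and 8.07 after GSK-J4 and 7.94, 8.12 and 8.02 after both, a difference of -0.38 (SE 0.035, adjusted p = 1.9e-09) after GSK-J4. CENPE was at 6.85, 6.98 and 6.84 in control cells, 6.71, 6.76 and 6.80 after cisplatin, 6.52, 6.45 and 6.61 after GSK-J4 and 6.31, 6.52 and 6.48 after both, at -0.37 (SE 0.049, adjusted p = 1.4e-06). PLK1 stood at 7.58, 7.60 and 7.55 in control cells, 7.51, 7.49 and 7.48 after cisplatin, 7.25, 7.23 and 7.19 after GSK-J4 and 7.10, 7.18 and 7.12 after both. It was lower by 0.35 after GSK-J4 (adjusted p = 2.3e-09) and by 0.45 after both agents. For these 3 genes no GSK-J4 library reached the controls. MKI67 was at 8.04, 8.25 and 8.18 in control cells, 8.11, 8.26 and 8.25 after cisplatin, 7.87, 7.77 and 7.94 after GSK-J4 and 7.52, 7.56 and 7.71 after both. It differed by -0.30 (SE 0.051, adjusted p = 5.0e-05) after GSK-J4 and stood lowest after both agents. TOP2A was at 9.88, 9.90 and 9.87 in control cells, 9.89, 9.92 and 9.96 after cisplatin, 9.74, 9.66 and 9.81 after GSK-J4 and 9.75, 9.78 and 9.81 after both, and CDK1 at 6.53, 6.51 and 6.44 in control cells, 6.58, 6.56 and 6.52 after cisplatin, 6.29, 6.38 and 6.40 after GSK-J4 and 6.55, 6.64 and 6.54 after both. Both were lower after GSK-J4, at -0.15 (adjusted p = 7.6e-04) and -0.14 (adjusted p = 0.0063), and CDK1 was higher in the combination than after GSK-J4 alone (0.22, adjusted p = 3.2e-04).

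Cisplatin alone moved none of the 46 genes of 2102EP-C1 cells past the adjusted p by limma-trend or voom, with 5 S-phase and 4 mitotic genes at an unadjusted p under 0.05 and 4.08% of all genes past the adjusted one. Without GSK-J4 replicate 3 or replicate 1 of the combination 1 member passed. After GSK-J4, cisplatin lowered 6 S-phase genes by adjusted p, which were E2F1 at -0.28 and the helicase genes MCM2, MCM4, MCM5, MCM6 and MCM7 at -0.20 to -0.11, and raised PCNA and TYMS, by 0.096 and 0.22. The mitotic genes MKI67, AURKB and PLK1 were lower, at -0.26, -0.13 and -0.096, and CDK1 and CCNB2 higher. None of these passed 1.3-fold with limma-trend or voom, beside 2.22% of all genes, and 15.7% of all genes passed the adjusted p in this comparison. The 13 passing genes became 20 without GSK-J4 replicate 3 and 8 without GSK-J4 replicate 2.

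Both agents called more members than GSK-J4 alone in 2102EP-C1 cells: 5 S-phase and 6 mitotic genes fell by more than 1.3-fold against controls. Over all genes 9.77% were called lower with both agents and 3.12% with GSK-J4 alone. The S-phase genes were E2F2 at -0.67, E2F1, CCNE1, MCM5 and MCM6, and the mitotic genes MKI67 at -0.56, CENPE, AURKB, PLK1, CCNB1 and KIF20A. The mitotic group as a whole was not lower than with GSK-J4 alone. Its median was -0.18 with both agents and -0.21 with GSK-J4 alone, while the S-phase median was -0.25 and -0.20. By adjusted p 18 S-phase and 17 mitotic genes were lower with both agents, beside 4358 of all 17035 genes. GSK-J4 alone had 19 and 22, beside 16.0%. The 2 comparisons share their control libraries, and 7 members in place of 11 were called without replicate 1 of the combination. GSK-J4 within cisplatin-treated cells lowered 3 S-phase and 4 mitotic genes by more than 1.3-fold, beside 8.82% of all genes. The change in the cisplatin difference with GSK-J4 called no member by limma-trend or voom, beside 0.857% of all genes, with 3 S-phase and 5 mitotic genes at an unadjusted p under 0.05, and passed the adjusted p for MKI67, at -0.32 (SE 0.072, adjusted p = 0.017), where 2.38% of all genes did. This value for MKI67 did not pass in 5 of the 12 fits that left out 1 library, with adjusted p values up to 0.080, and 11 members passed without GSK-J4 replicate 3.

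**Figure D2:**
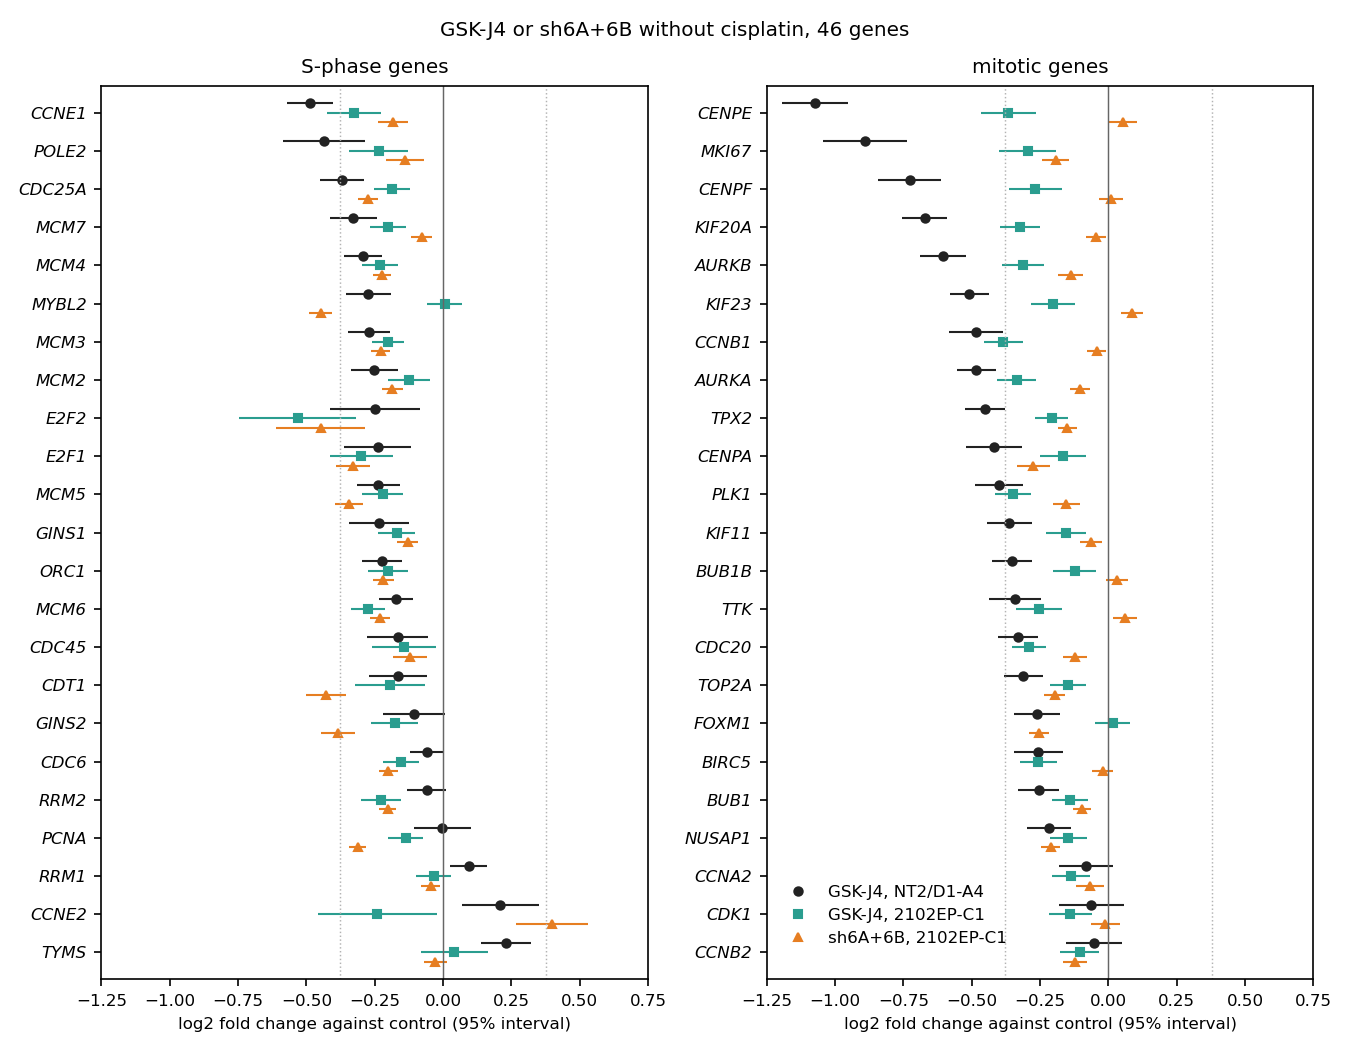
Log2 fold change of each of the 46 genes for GSK-J4 alone in NT2/D1-A4 (black circles) and 2102EP-C1 (green squares) and for sh6A+6B alone in 2102EP-C1 (orange triangles), each against the control of its experiment. Lines are 95% intervals of the fit and dotted lines mark 1.3-fold. CENPE and MKI67 lie farthest left for GSK-J4 in NT2/D1-A4 cells, and the mitotic triangles lie between -0.27 and 0.085.

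Knockdown of the demethylases lowered 21 of the 23 S-phase genes of 2102EP-C1 cells and, by smaller amounts, 16 of the 23 mitotic genes. CCNE2 and the mitotic genes KIF23 and TTK were higher by adjusted p, and 27.2% of all genes were lower and 25.6% higher. Past 1.3-fold 4 S-phase genes fell and CCNE2 rose, where 5.74% of all genes fell and 6.34% rose. No mitotic gene passed that limit by limma-trend or voom, with 19 at an unadjusted p under 0.05. The medians were -0.22 for S phase and -0.096 for mitosis, beside -0.0047 for all genes. The 5 calls became 3 without pLKO.1 replicate 1 or sh6A+6B replicate 1, and 2, E2F2 and GINS2, with length and GC trends removed. In that last fit KIF23 was at 0.034 (adjusted p = 0.066) and TTK at -0.020 (adjusted p = 0.3), so that no mitotic gene was higher by adjusted p.

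MYBL2, E2F2, CDT1 and GINS2 fell most among the S-phase genes of sh6A+6B cells. MYBL2, the factor that activates the later G2 genes, was at 8.33, 8.36 and 8.32 in pLKO.1 cells, 8.20, 8.24 and 8.23 in pLKO.1 cells after cisplatin, 7.84, 7.92 and 7.91 in sh6A+6B cells and 7.72, 7.77 and 7.73 in sh6A+6B cells after cisplatin (log2 CPM), a difference of -0.45 (SE 0.020, adjusted p = 7.5e-15) in sh6A+6B cells. E2F2 was at 1.89, 2.03 and 1.90 in pLKO.1 cells, 1.60, 1.72 and 1.55 in pLKO.1 cells after cisplatin, 1.41, 1.61 and 1.45 in sh6A+6B cells and 1.11, 1.195 and 1.27 in sh6A+6B cells after cisplatin, at -0.45 (SE 0.079, adjusted p = 4.3e-05). It lay lower again in each arm given cisplatin. CDT1, which loads the helicase, fell by 0.43 (adjusted p = 4.4e-10). GINS2, a subunit of the active helicase, stood at 5.82, 5.80 and 5.80 in pLKO.1 cells, 5.58, 5.56 and 5.63 in pLKO.1 cells after cisplatin, 5.36, 5.44 and 5.47 in sh6A+6B cells and 5.56, 5.58 and 5.49 in sh6A+6B cells after cisplatin. The knockdown difference was -0.38 (SE 0.029, adjusted p = 1.3e-10), and the libraries of sh6A+6B cells given cisplatin lay between those of sh6A+6B and pLKO.1 cells. E2F1 was at 4.87, 4.84 and 4.81 in pLKO.1 cells, 4.68, 4.70 and 4.65 in pLKO.1 cells after cisplatin, 4.51, 4.50 and 4.53 in sh6A+6B cells and 4.28, 4.35 and 4.33 in sh6A+6B cells after cisplatin, with a difference of -0.33 (SE 0.030, adjusted p = 2.7e-09).

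PCNA of the knockdown experiment was at 9.14, 9.16 and 9.14 in pLKO.1 cells, 9.12, 9.13 and 9.13 in pLKO.1 cells after cisplatin, 8.85, 8.81 and 8.84 in sh6A+6B cells and 9.15, 9.14 and 9.13 in sh6A+6B cells after cisplatin. It was lower in the 3 sh6A+6B libraries without cisplatin at -0.31 (SE 0.015, adjusted p = 2.2e-14). In the deposited values the sh6A+6B libraries with cisplatin lay among the pLKO.1 libraries. With length and GC trends removed PCNA in sh6A+6B cells was at -0.36 without cisplatin and -0.18 with it (limma adjusted p = 4.4e-15), both against untreated pLKO.1. MCM2 was at 7.11, 7.07 and 7.10 in pLKO.1 cells, 7.003, 7.01 and 7.02 in pLKO.1 cells after cisplatin, 6.90, 6.92 and 6.90 in sh6A+6B cells and 6.72, 6.77 and 6.74 in sh6A+6B cells after cisplatin, a difference of -0.19 (SE 0.019, adjusted p = 1.5e-08). RRM2 stood at 8.50, 8.50 and 8.48 in pLKO.1 cells, 8.50, 8.53 and 8.51 in pLKO.1 cells after cisplatin, 8.30, 8.28 and 8.29 in sh6A+6B cells and 8.43, 8.45 and 8.43 in sh6A+6B cells after cisplatin, at -0.20 (SE 0.015, adjusted p = 7.6e-11), and was nearer to pLKO.1 with cisplatin. CCNE2 was at 3.05, 3.30 and 3.07 in pLKO.1 cells, 3.21, 3.20 and 3.03 in pLKO.1 cells after cisplatin, 3.58, 3.45 and 3.58 in sh6A+6B cells and 3.63, 3.46 and 3.64 in sh6A+6B cells after cisplatin. All 6 sh6A+6B libraries lay above all 6 pLKO.1 libraries, at 0.40 (SE 0.064, adjusted p = 1.3e-05) without cisplatin and 0.44 (SE 0.064, adjusted p = 2.4e-06) with it. With length and GC trends removed CCNE2 was at 0.31 and 0.22 in the same order, under 1.3-fold, and passed the adjusted p in both.

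Among the mitotic genes CENPA, the histone H3 variant of centromeres, and FOXM1, the forkhead factor that activates them, fell most in sh6A+6B cells. CENPA was at 5.44, 5.40 and 5.42 in pLKO.1 cells, 5.51, 5.47 and 5.48 in pLKO.1 cells after cisplatin, 5.20, 5.12 and 5.11 in sh6A+6B cells and 5.23, 5.24 and 5.32 in sh6A+6B cells after cisplatin, a difference of -0.27 (SE 0.029, adjusted p = 3.0e-08). FOXM1 stood at 8.90, 8.90 and 8.89 in pLKO.1 cells, 8.83, 8.85 and 8.86 in pLKO.1 cells after cisplatin, 8.62, 8.65 and 8.67 in sh6A+6B cells and 8.43, 8.49 and 8.48 in sh6A+6B cells after cisplatin, at -0.25 (SE 0.018, adjusted p = 2.5e-11), and lay lowest with cisplatin. TOP2A was at 10.05, 10.10 and 10.05 in pLKO.1 cells, 10.21, 10.19 and 10.19 in pLKO.1 cells after cisplatin, 9.87, 9.85 and 9.90 in sh6A+6B cells and 10.02, 9.99 and 10.07 in sh6A+6B cells after cisplatin, and PLK1 at 7.51, 7.49 and 7.48 in pLKO.1 cells, 7.41, 7.43 and 7.42 in pLKO.1 cells after cisplatin, 7.31, 7.39 and 7.32 in sh6A+6B cells and 7.32, 7.43 and 7.33 in sh6A+6B cells after cisplatin. Both were lower in sh6A+6B cells, by 0.20 and 0.15 (adjusted p = 5.7e-09 and 9.4e-06). CCNB1 was at 8.30, 8.30 and 8.29 in pLKO.1 cells, 8.28, 8.25 and 8.26 in pLKO.1 cells after cisplatin, 8.24, 8.27 and 8.25 in sh6A+6B cells and 8.57, 8.55 and 8.51 in sh6A+6B cells after cisplatin. It differed by -0.042 (adjusted p = 0.037) without cisplatin, and its 3 sh6A+6B libraries with cisplatin lay above all others. CDK1 was at 6.38, 6.39 and 6.40 in pLKO.1 cells, 6.62, 6.56 and 6.57 in pLKO.1 cells after cisplatin, 6.44, 6.32 and 6.38 in sh6A+6B cells and 6.80, 6.76 and 6.76 in sh6A+6B cells after cisplatin. In the deposited values it did not differ in sh6A+6B cells beyond the spread (-0.011, 95% interval -0.063 to 0.041) and stood highest in sh6A+6B cells given cisplatin. CENPE, at 0.055 (adjusted p = 0.071), and CENPF, at 0.0089 (adjusted p = 0.75), did not pass. With length and GC trends removed CDK1 was at -0.10 (limma adjusted p = 1.2e-05) and CENPF at -0.064 (6.3e-04), and both passed. CENPE was then at -0.045 (0.074) and did not. In that fit CDK1 with cisplatin stood at 0.14 in sh6A+6B and 0.18 in pLKO.1 cells, each against untreated pLKO.1.

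Cisplatin in pLKO.1 cells moved 25 members past the adjusted p, none by more than 1.3-fold. By adjusted p 13 S-phase genes were lower and TYMS higher, and 7 mitotic genes were higher and 4 lower, where 17.9% of all genes were higher and 18.2% lower. The count past 1.3-fold was 0 by limma-trend and by voom, beside 3.00% of all genes, and 16 S-phase and 14 mitotic genes had an unadjusted p under 0.05. E2F2 fell by 0.32 (SE 0.079, adjusted p = 0.0027) and GINS2 by 0.22 (SE 0.029, adjusted p = 3.7e-06). CENPF rose by 0.25 (SE 0.022, adjusted p = 3.8e-09), CDK1 by 0.19 (adjusted p = 2.2e-06) and MKI67 by 0.18 (adjusted p = 3.2e-06). With length and GC trends removed MKI67 was at 0.036 (adjusted p = 0.087) and no longer passed, CENPF was at 0.13 (adjusted p = 4.2e-08) and CDK1 at 0.18 (adjusted p = 6.3e-10).

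In sh6A+6B cells cisplatin raised CDK1, CCNB1 and other mitotic genes and lowered MKI67 and CENPF. By adjusted p 16 mitotic genes rose and 4 fell, and 8 S-phase genes rose and 9 fell, where 22.1% of all genes rose and 22.7% fell. CDK1 alone passed 1.3-fold, at 0.40 (SE 0.025, adjusted p = 1.6e-11), beside 2.48% of all genes called higher, and this call was lost without sh6A+6B replicate 2, while 2 members were called without replicate 3 of sh6A+6B given cisplatin. Against pLKO.1, sh6A+6B cells given cisplatin had 5 S-phase genes more than 1.3-fold lower, MYBL2, E2F2, E2F1, CDT1 and MCM5, with CCNE2 higher, and 2 mitotic genes lower, MKI67 at -0.56 and FOXM1 at -0.43, with CDK1 higher, where 7.50% of all genes were lower and 8.51% higher. Knockdown within cisplatin-treated cells lowered MYBL2, CDT1 and E2F2 and, of the mitotic genes, MKI67, CENPF and FOXM1 by more than 1.3-fold, and raised CCNE2, beside 8.77% of all genes lower and 6.40% higher. With length and GC trends removed 4 members in place of 9 were called in the first of these comparisons, MYBL2, E2F2, MKI67 and MCM6. MCM6 was not called before. FOXM1 was then at -0.33, CCNE2 at 0.22 and CDK1 at 0.14, no longer past 1.3-fold. In the second comparison MYBL2 and MKI67 stayed called, 2 in place of 7.

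The difference between the 2 cisplatin responses passed the adjusted p for 11 S-phase genes upward and 1 downward, and for 12 mitotic genes upward and 4 downward, where 17.2% of all genes passed upward and 18.0% downward. MKI67 and CENPF were the members past 1.3-fold, both downward, beside 2.67% of all genes. MKI67 was at 8.44, 8.46 and 8.43 in pLKO.1 cells, 8.61, 8.61 and 8.65 in pLKO.1 cells after cisplatin, 8.24, 8.26 and 8.26 in sh6A+6B cells and 7.84, 7.85 and 7.97 in sh6A+6B cells after cisplatin. It rose with cisplatin in pLKO.1 cells, in the deposited values, and fell by 0.37 in sh6A+6B cells, a difference of -0.54 (SE 0.034, adjusted p = 1.7e-11). CENPF stood at 8.68, 8.71 and 8.69 in pLKO.1 cells, 8.94, 8.93 and 8.96 in pLKO.1 cells after cisplatin, 8.71, 8.67 and 8.73 in sh6A+6B cells and 8.51, 8.48 and 8.59 in sh6A+6B cells after cisplatin. It rose by 0.25 in pLKO.1 and fell by 0.18 in sh6A+6B cells, a difference of -0.43 (SE 0.030, adjusted p = 1.4e-10). For both genes the libraries with and without cisplatin did not overlap in either kind of cell. In the opposite direction stood GINS2 at 0.34, PCNA at 0.32, CCNB1 at 0.32 and CCNB2 at 0.26, all under 1.3-fold with adjusted p values of 6.5e-07 or lower. Leaving out any 1 library kept MKI67 between -0.58 and -0.52 and CENPF between -0.46 and -0.40.

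**Figure D3:**
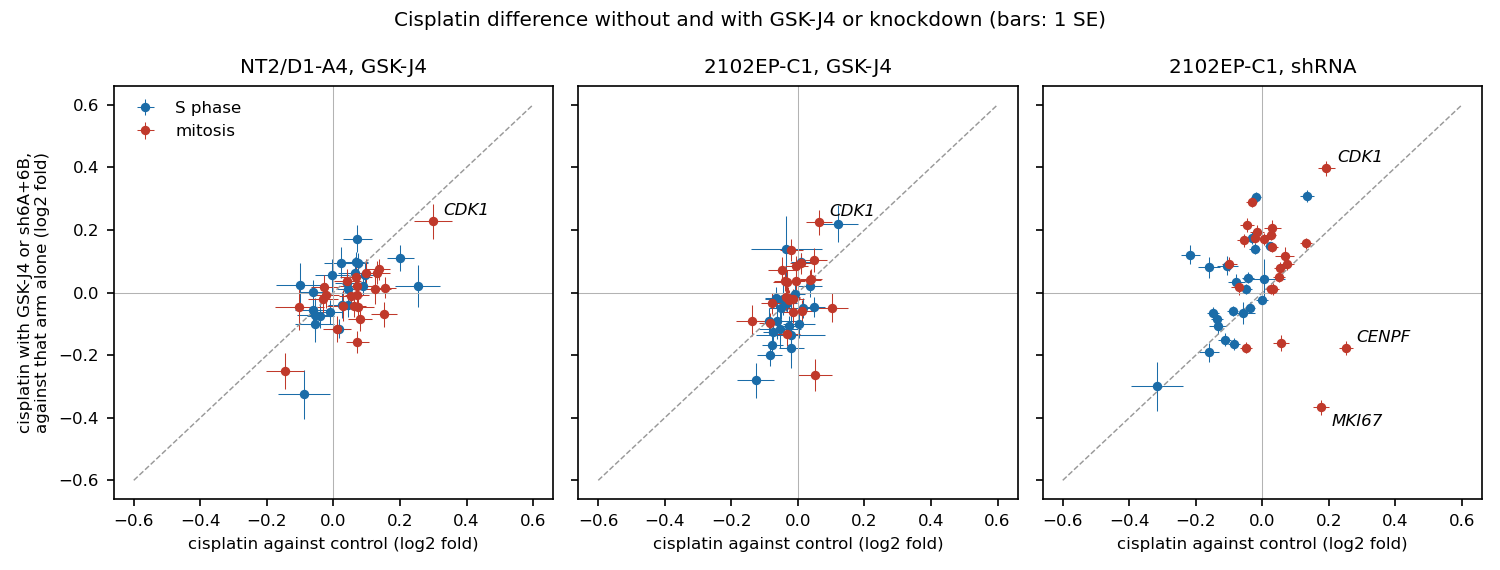
Cisplatin log2 fold change of the 46 genes without (horizontal axis) and with (vertical axis) GSK-J4 or sh6A+6B, in the 3 experiments. Points are genes, blue for S phase and red for mitosis, bars are 1 SE and the dashed line marks equal differences. For the knockdown MKI67 and CENPF lie far below the dashed line, and CDK1 is highest on the vertical axis.

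Transcript length moved with this comparison. MKI67, CENPF and CENPE have the longest canonical transcripts among the members, 12716, 10290 and 8541 bases, and CENPE followed these 2 at -0.22 (SE 0.035, adjusted p = 2.7e-05). Over the 46 members the change in the cisplatin difference had a Spearman rho of -0.66 with length, and over 15222 genes with a length it had -0.52. The 1335 genes above 8000 bases, a limit set after the values were seen, had a median of -0.22 against 0.013 for the rest, and 16.9% of them were called lower. For the same change in the GSK-J4 experiments the rho was -0.064 over the members and -0.010 over all genes in NT2/D1-A4, and -0.36 and -0.069 in 2102EP-C1. Length moved with other comparisons too. Over all genes the rho was 0.38 for cisplatin in pLKO.1, -0.30 for cisplatin in sh6A+6B and -0.31 for knockdown with cisplatin. For knockdown alone it was 0.10. In 2102EP-C1 it was 0.19 for cisplatin and 0.17 for GSK-J4, and in NT2/D1-A4 0.086 and -0.046. With the trends of length and GC content removed from each library, MKI67 was at -0.26 (SE 0.023, adjusted p = 6.9e-11) and CENPF at -0.25 (SE 0.022, adjusted p = 5.0e-11), so that neither passed 1.3-fold and both passed the adjusted p. PCNA was then at 0.16, CCNB1 at 0.20 and GINS2 at 0.31, with 11 S-phase genes upward and none downward and 10 mitotic genes upward and 4 downward by adjusted p. CDK1 in sh6A+6B cells given cisplatin was at 0.24 in that fit, no longer past 1.3-fold. The part of length in these results was not tested, and RNA quality was not analysed here.

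**Figure D4:**
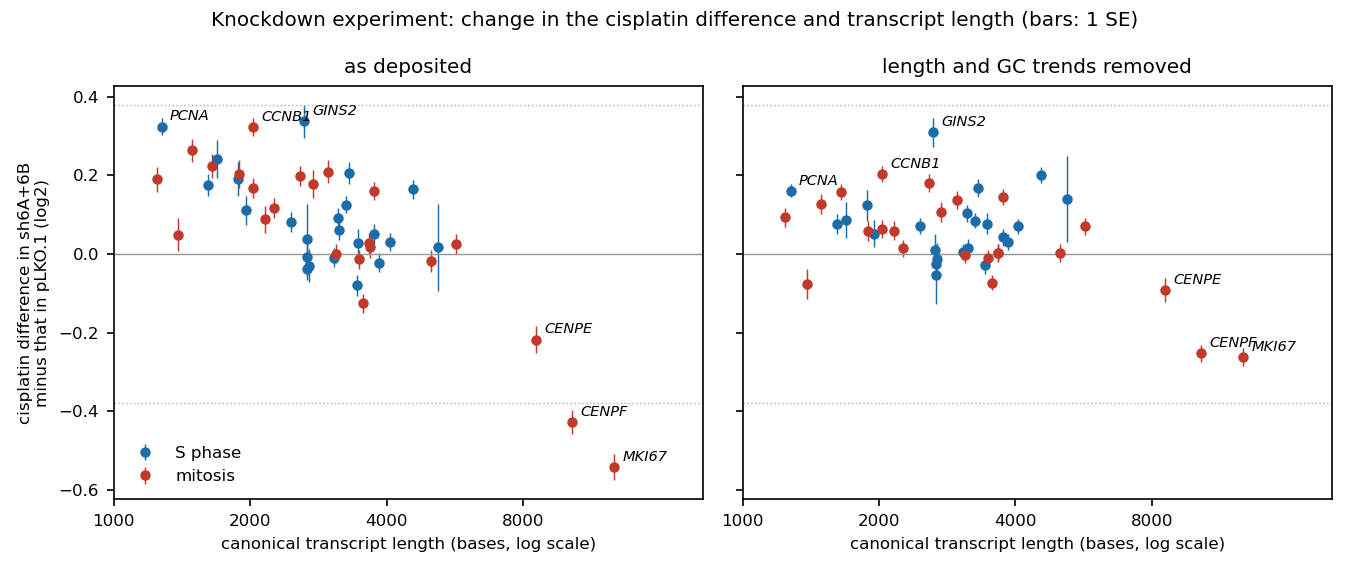
Change in the cisplatin log2 fold change with sh6A+6B (vertical axis) against canonical transcript length in bases (log axis) for the 46 genes, as deposited (left) and with length and GC trends removed from each library (right). Bars are 1 SE and dotted lines mark 1.3-fold. MKI67, CENPF and CENPE lie at the right and lowest in both panels, and MKI67 moves from -0.54 to -0.26.

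Across experiments, without cisplatin, 15 S-phase and 13 mitotic genes were lower by adjusted p in all 3, beside 4.75% of the 15050 genes measured in all of them. The S-phase genes were MCM2 to MCM7, CDT1, ORC1, CDC45, GINS1, POLE2, CCNE1, E2F1, E2F2 and CDC25A. The mitotic genes were MKI67, TOP2A, CCNB1, PLK1, AURKA, AURKB, BUB1, CDC20, CENPA, KIF11, KIF20A, TPX2 and NUSAP1. MKI67 fell by 0.89 and 0.30 with GSK-J4 and by 0.19 with knockdown, and E2F1 by 0.24, 0.30 and 0.33. CCNE2 was higher in NT2/D1-A4 with GSK-J4 and with knockdown, where it was the single member of these 3 comparisons to rise by more than 1.3-fold. With length and GC trends removed its knockdown difference was 0.31, under that limit. In 2102EP-C1 with GSK-J4 its mean was lower than in controls and it did not pass. Over the 46 genes the fold changes had a Spearman rho of 0.57 between the GSK-J4 experiments, and between GSK-J4 and knockdown it was -0.20 for NT2/D1-A4 and -0.075 for 2102EP-C1. These comparisons share no library, the genes are not independent replicates, and since each experiment was normalized on its own, differences between experiments were not tested.

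Grouped by promoter, 14 genes with an E2F word and no CHR word had a median of -0.24 for GSK-J4 in NT2/D1-A4, -0.19 in 2102EP-C1 and -0.23 for knockdown. The 16 genes with a CHR word and no E2F word had medians of -0.38, -0.25 and -0.092. MCM6 and CDT1, of the E2F type printed above, were at -0.17 and -0.16 in NT2/D1-A4 and at -0.23 and -0.43 with knockdown, and CCNB1 and PLK1, of the CHR type, at -0.48 and -0.40 and at -0.042 and -0.15. The motif groups follow the S-phase and mitotic lists closely and are not a separate line of evidence.

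**Figure D5:**
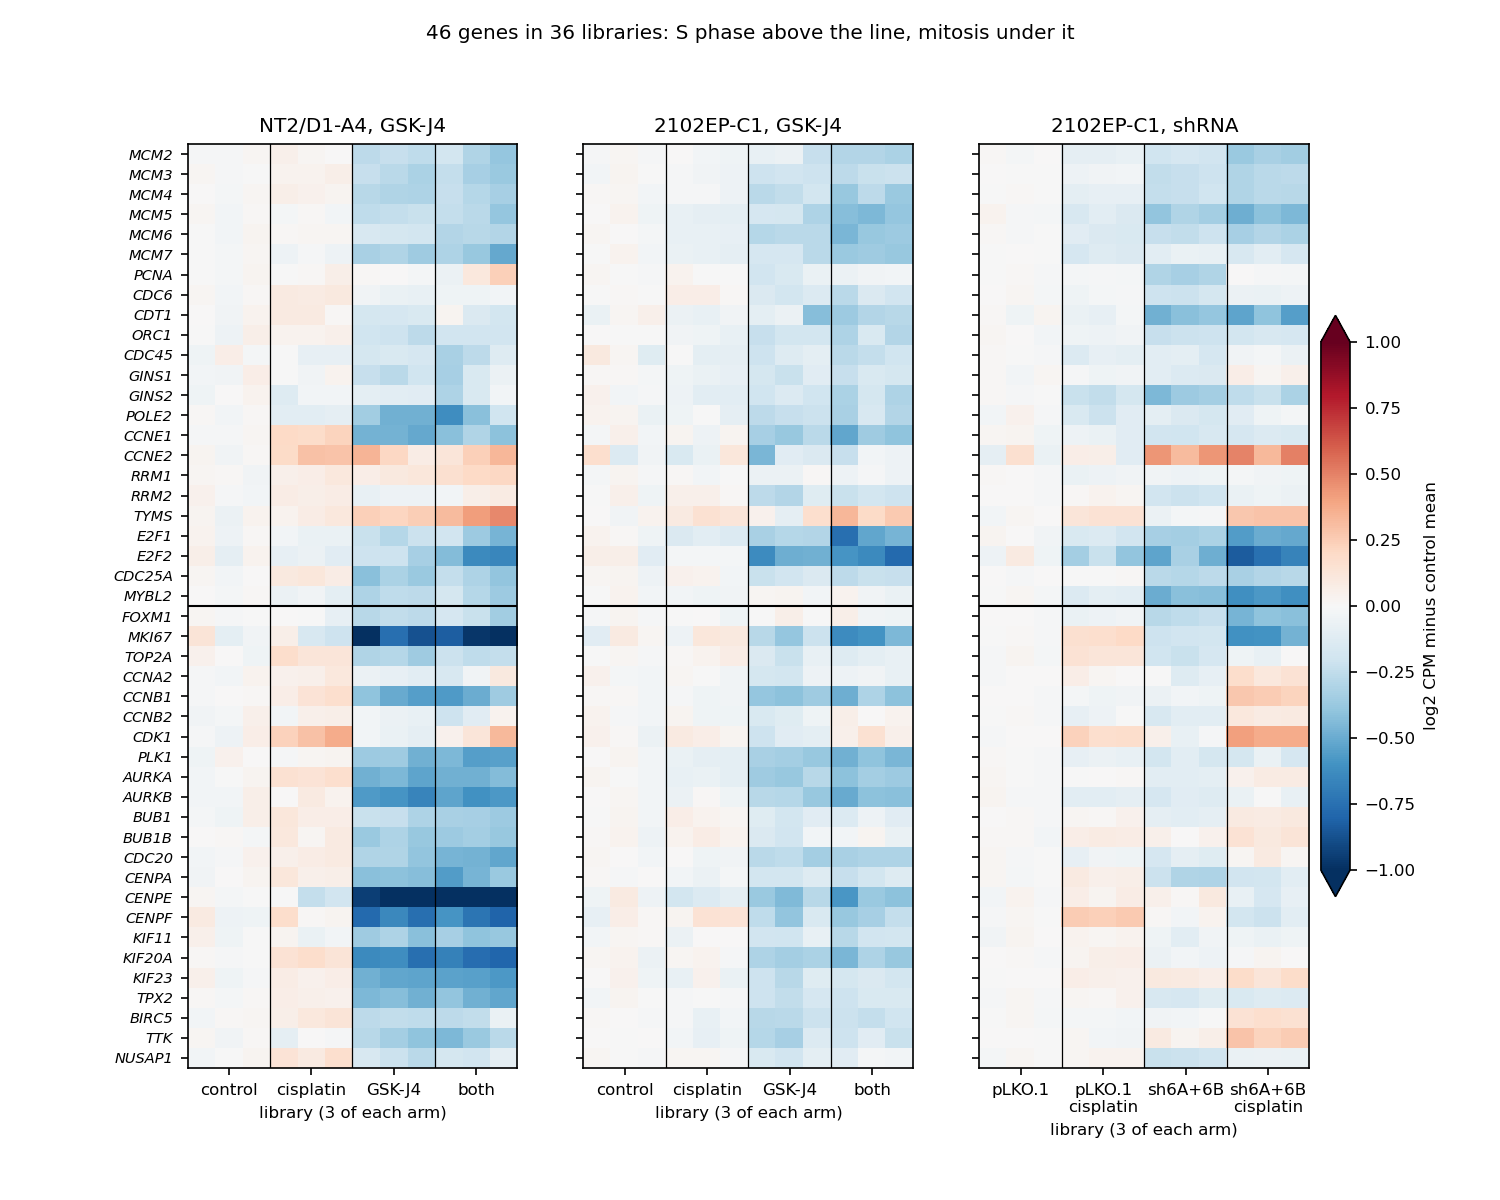
Log2 CPM of the 46 genes in the 36 libraries, each minus its mean in the 3 control libraries of the experiment, from blue (lower) to red (higher) with the colour scale ending at 1 either way, and with S phase above the line and mitosis under it. The rows of MKI67 and CENPE are darkest in the 6 NT2/D1-A4 columns with GSK-J4, and CCNE2 is red in the 6 sh6A+6B columns.

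Further genes of the same pathways were lower as well. Of 51 other replication genes, by adjusted p, 28 were lower and 4 higher with GSK-J4 in NT2/D1-A4, 20 were lower and 2 higher in 2102EP-C1 and 32 were lower and 4 higher with knockdown. Over all genes 23.8%, 16.0% and 27.2% were lower in the same order. UHRF1, which carries DNA methylation through replication, fell most in each, by 0.86, 0.48 and 0.43, and MCM10 fell by 0.53 in NT2/D1-A4, CHTF18 by 0.40 in 2102EP-C1 and DUT, a dUTPase, by 0.39 with knockdown. Of 58 other mitotic genes 44 were lower and 3 higher in the first of these experiments, 39 were lower and 2 higher in the next and 41 were lower and 4 higher in the knockdown experiment, with BORA (-0.74) and ASPM (-0.70) in NT2/D1-A4, CDCA3 (-0.47) and SPC24 (-0.40) in 2102EP-C1 and CDCA8 (-0.48) with knockdown past 1.3-fold. With the knockdown the change in the cisplatin difference called 3 of these 58, CKS1B at 0.40 and CKS2 at 0.39, small CDK-binding proteins with transcripts of 779 and 616 bases, and CIT, a cytokinesis kinase with a transcript of 8736 bases, at -0.40, where 3.77% of all genes were called.

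Several brakes of the cycle rose with GSK-J4. CDKN1A, the p53-induced CDK inhibitor p21, rose by 2.07 in NT2/D1-A4 (SE 0.061, adjusted p = 3.7e-15) and by 0.93 in 2102EP-C1 (SE 0.054, adjusted p = 4.2e-13), and stood at 0.087 with knockdown (adjusted p = 0.033). Cisplatin alone raised it by 0.75, 0.44 and 0.63 in the same order, beside 2.05%, 0.881% and 2.53% of all genes called higher. Of 7 CDK inhibitors 5, 4 and 5 had a row and, by adjusted p, 0 were lower and 4 higher with GSK-J4 in NT2/D1-A4, where CDKN2B rose by 1.22, 0 were lower and 2 higher in 2102EP-C1 and 1 was lower and 3 higher with knockdown, where CDKN2A rose by 0.67. Over all genes 24.5%, 19.2% and 25.6% were higher by adjusted p, and 23.8%, 16.0% and 27.2% lower. Of 14 measured checkpoint kinases and brakes, in the same order of experiments, 3 were lower and 8 higher, 3 were lower and 9 higher, and 5 were lower and 5 higher. The antiproliferative p53 target BTG2 rose by 2.23 and 1.46 with GSK-J4, PLK2 by 1.40 in NT2/D1-A4 and GADD45A by 0.90 in 2102EP-C1, and the CDK1-inhibiting kinase PKMYT1 fell by 0.42 with knockdown. Of 6 G1 cyclins and kinases 3 were lower and 2 higher, 4 were lower and 1 higher and 3 were lower and 0 higher, with the D-type cyclin CCND2 at 1.46 in NT2/D1-A4 and -0.41 with knockdown. Of 16 pocket proteins, E2F and MuvB genes 6 were lower and 3 higher, 5 were lower and 3 higher and 7 were lower and 2 higher, and the repressor E2F8 fell by 0.48 in NT2/D1-A4 and 0.71 with knockdown.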

How the data were processed

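RNA-seq values of 36 libraries, 3 experiments of 4 arms with 3 libraries each, were analysed. After trimming (Trimmomatic), alignment to GRCh38.p14 (STAR) and counting (featureCounts), the authors deposited 1 table per experiment of log2 CPM, scaled by effective library size with a prior count of 3. Tool versions and the strand setting are not given in the sources used here. Every deposited value under 50 reads lay within 0.05 of a whole read once the scaling was undone, so depth was taken from the recovered reads. Each table was normalized on its own and tested on its own. A group-means model over its 12 libraries was fitted with limma 3.58.1 (R 4.3.3, trend over level, no block), with Benjamini-Hochberg adjustment over all genes of the table. A gene was called where its fold change was over 1.3 at an adjusted p under 0.05. The code of the fits was tried on simulated reads. These had the same dispersion for every gene and no trend with transcript length, so the trial cannot show how the fits perform on the real data. Values in every library are given for 10 fixed members and, in each experiment, for the 2 S-phase and 2 mitotic members with the largest fold changes past the adjusted p for GSK-J4 or knockdown and for cisplatin, and for members called in the change of the cisplatin difference. From each further list the 2 called genes with the largest changes in a comparison could be named, and CDKN1A always. The fixed members, lists and alternatives were chosen with earlier results of these data known. The alternatives were a filter at a mean log2 CPM of 1, fits on the compared arms, a replicate block, voom on recovered reads, library size alone, a prior count of 0.5, each library left out, no fold limit and, added later, spline trends of transcript length and GC content (4 degrees of freedom) removed from each library. Lengths were of canonical transcripts. Confidence intervals are 95% intervals of the fit. The p-values set a difference between arms against the spread between libraries within arms, pooled over the 4 arms and moderated over genes.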

Additional observations from a re-analysis of the deposited data

Results flagged for a closer look

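In the knockdown experiment the cisplatin fold change of MKI67 in sh6A+6B cells was lower than in pLKO.1 cells by a log2 difference of -0.542, and that of CENPF by -0.428, both by a test of the difference itself that passed the adjusted p and 1.3-fold. In the deposited values both genes were higher in all 3 pLKO.1 libraries with cisplatin than without it, and lower in all 3 such sh6A+6B libraries. Removing the trends of length and GC content left a difference of -0.26 for MKI67 and -0.25 for CENPF, and the cisplatin fold change of MKI67 in pLKO.1 cells was then 0.036 (log2) and did not pass (limma adjusted p = 0.087). The part of length in the difference was not tested.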

How the results depend on the processing

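Of the 46 genes, the called numbers rest first on the fold limit. By adjusted p alone 7, 39, 40, 3 and 40 members passed in NT2/D1-A4 for cisplatin, GSK-J4, both agents, cisplatin after GSK-J4 and GSK-J4 with cisplatin. Of all 16431 genes 1550, 7929, 8870, 207 and 7949 passed, in that order. In 2102EP-C1 41, 36, 13 and 36 members passed for GSK-J4 and the comparisons after it in that order, and 1 for the change in the cisplatin difference. Of all 17035 genes 6001, 9021, 2682, 8412 and 405 passed. In the knockdown experiment 25, 40, 38, 37 and 40 members passed in the order of NT2/D1-A4 with sh6A+6B in place of GSK-J4, and 28 for the change in the cisplatin difference. Of all 16459 genes 5946, 8685, 10299, 7369, 10143 and 5785 passed. With library size in place of the deposited scaling, the S-phase median in NT2/D1-A4 was 0.049 for cisplatin, -0.19 for GSK-J4, -0.22 for both and -0.20 for GSK-J4 with cisplatin, and the mitotic median -0.32 for GSK-J4 and -0.41 for both. In the same setting 1 member was called for GSK-J4 in 2102EP-C1. For knockdown the medians were -0.20 (S phase) and -0.080 (mitosis), with cisplatin -0.15 and 0.028 against pLKO.1, and 0.063 (mitosis) against pLKO.1 with cisplatin.

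Removing length and GC trends was added after the data had been seen. In NT2/D1-A4 it gave S-phase and mitotic medians of -0.29 and -0.42 with 20 calls for GSK-J4, -0.32 and -0.56 for both agents, -0.28 and -0.57 for GSK-J4 with cisplatin, and -0.0036 for the S-phase median of the change in the cisplatin difference. In 2102EP-C1 the medians were -0.25 and -0.28 with 7 calls for GSK-J4, -0.32 and -0.29 for both, and -0.26 (mitosis) for GSK-J4 with cisplatin. In the knockdown experiment the mitotic median for cisplatin was 0.0084, and 2 members were called for sh6A+6B. Against pLKO.1, sh6A+6B with cisplatin had medians of -0.23 and -0.047 and 4 calls. Cisplatin in sh6A+6B cells had -0.033 and 0.053 and 0 calls. Knockdown with cisplatin had -0.15 for S phase, -0.042 for mitosis, where the sign turned from 0.049, and 2 calls. The change in the cisplatin difference had a mitotic median of 0.058 and 0 calls. TTK, higher in sh6A+6B cells at 0.060, was then at -0.020. The cause of these shifts was not tested.

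Leaving out 1 library at a time gave ranges of -0.25 to -0.20 for the S-phase median with GSK-J4 in NT2/D1-A4, -0.28 to -0.24 and -0.46 to -0.42 for the S-phase and mitotic medians with both agents, -0.062 to -0.0045 for the S-phase median of the change in the cisplatin difference, and 0 to 1 calls for cisplatin after GSK-J4. In 2102EP-C1 the calls ranged from 1 to 3 for GSK-J4 and from 7 to 13 for both, and the S-phase median from -0.30 to -0.22 for both and from -0.090 to -0.047 for cisplatin after GSK-J4. In the knockdown experiment the calls ranged from 3 to 5 for sh6A+6B and from 0 to 2 for cisplatin in sh6A+6B cells, and the mitotic median from 0.10 to 0.14 for the latter, from 0.030 to 0.051 for knockdown with cisplatin and from 0.061 to 0.11 for the change in the cisplatin difference.

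The labels do not say that a replicate number marks a shared batch or day, and the samples were not treated as paired. Deviations from the group means of same-numbered libraries correlated at -0.18 to 0.28 in NT2/D1-A4, -0.13 to 0.10 in 2102EP-C1 and -0.17 to 0.31 in the knockdown experiment, with 3, 1 and 5 of 18 pairs over 0.1. Averaged over the other arms, the correlation was highest for the library's own number, of 3, in 5, 2 and 7 of 12 libraries. With the replicate block 13 members were called for GSK-J4 in NT2/D1-A4, 2 in 2102EP-C1, 5 for sh6A+6B and 2 for the change in the cisplatin difference. The filter on mean level, fits on only the arms compared, voom on recovered reads, another prior count and the block kept every median and every count of calls within its margin, which was the spread between libraries for a median and a factor of 1.5 for a count. Single members were tallied if they passed the adjusted p in the main fit. The tally took cisplatin and GSK-J4 or knockdown, each against control, and the change in the cisplatin difference. Over all alternatives 3371 of these values kept direction and side of the threshold, 19 lost it, 19 gained it and 1 changed sign. An uncalled value that lost only the adjusted p counted as kept. With length and GC trends removed, members outside the tally changed sign too, among them CENPE (-0.045) and CENPF (-0.064) in sh6A+6B cells. Every member had 96 reads or more in every library, the fewest for E2F2 in 2102EP-C1.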
